A study of Rattus norvegicus with 12 samples.

Results

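Transcripts of 9 RNA-binding proteins that set the splicing pattern of heart muscle, Rbm20, Rbm24, Rbfox1, Rbfox2, Mbnl1, Mbnl2, Celf1, Celf2 and Ptbp1, were followed in iAM-1 cells. This line was made from atrial heart muscle cells of newborn Wistar rats and is conditionally immortalized, so that it can be grown and then differentiated. The members were taken by gene name from the deposited table of 32761 features, and all 9 were found there, each on 1 locus. Polyadenylated RNA from 12 samples in 4 groups of 3 was sequenced to see what knockdown of Sbk2, which encodes a kinase named for SH3 domain binding, does to the transcripts of differentiated cells.

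The groups were cells given lentiviral Sbk2 shRNA 2, cells given lentiviral Sbk2 shRNA 1, cells given a lentiviral control shRNA named ppluc, and untransduced cells. All 4 groups were differentiated in medium with 2% serum and no doxycycline, and the vectors were added soon after differentiation had begun. The untransduced cells received no vector and therefore differ from the ppluc cells by the transduction and the control shRNA together. All samples come from a single line and carry the marks D9 and P10, whose meaning the labels leave unexplained. The titles of all Sbk2 shRNA samples begin with the same number, while those of the control samples carry different ones, and the labels do not say what this number marks or whether the replicates were separate cultures. The p-values below therefore measure only the spread between these samples, which may be technical. The sequences targeted by the shRNAs were not used here.

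Most vertebrate pre-mRNAs can be spliced in more than 1 way, and proteins that bind near an exon decide whether it is kept. In the developing heart, Celf proteins and Ptbp1 are known to decline while Mbnl proteins and the muscle regulators Rbm20 and Rbm24 hold the mature pattern, which includes the short, stiff form of titin. Rbfox proteins bind UGCAUG and generally favour an exon that lies upstream of the site and repress one that lies downstream. The values below are gene totals: they show how much transcript of each regulator was present and do not show exon use or protein.

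The deposited values are group means, and the reads of each library were recovered from them by arithmetic. Exactly 1 solution was left for all 9 members in all groups, after any with an unusually wide spread between libraries had been dropped. Libraries held 30274847 to 47517427 assigned reads and are called A, B and C by rising total within a group, with no pairing between groups. Sbk2 itself averaged 0.673 ± 0.05 (a gene's reads as a share of the library's assigned reads, scaled to a fixed total) with shRNA 2 and 1.07 ± 0.0666 CPM with shRNA 1, against 27.1 ± 2.42 CPM with ppluc and 45.2 ± 2.36 CPM in untransduced cells (SD, n = 3 each). The 9 cardiomyocyte markers summed to 18435 to 24732 CPM with shRNA 2, 34483 to 37242 CPM with shRNA 1, 67891 to 75506 CPM with ppluc and 76414 to 80800 CPM in untransduced cells. All 9 were lower with shRNA 2 than with ppluc, and 8 of 9 were lower with shRNA 1, on the scale as deposited. Of all genes tested, 21.1% and 18.7% were lower in these comparisons. Abundant muscle genes such as Myh6, the main atrial myosin heavy chain, took less of the library there, and the median of 12493 tested genes stood 0.50 (log2) higher with shRNA 2 and 0.26 higher with shRNA 1 than with ppluc. Each change is therefore given on library totals as deposited and again after trimmed-mean (TMM) scaling, which brought these medians to -0.00 and 0.01. In bulk RNA, fewer cells of a type and less RNA per cell cannot be told apart.

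Fibroblast markers summed to 16.4 to 22.2 CPM with shRNA 2, 25.04 to 28.9 CPM with shRNA 1, 115 to 149 CPM with ppluc and 76.5 to 88.1 CPM in untransduced cells. Of the 6 fibroblast markers in the table, Lum and Tcf21 had no read in any library and Dcn had reads with ppluc only. The sum is almost all Col1a1, and Thy1, the other fibroblast marker tested, was higher with shRNA 2 at 2.07 CPM, against 0.295 CPM with ppluc (limma, 1.69, adjusted p = 1.27e-08). The 4 smooth muscle markers summed to 2265 to 3020 CPM with shRNA 2, 3082 to 3594 CPM with shRNA 1, 7088 to 7681 CPM with ppluc and 7828 to 8052 CPM in untransduced cells. This sum is mostly Acta2. With shRNA 2 against ppluc 3 of the 4 were lower on library totals, beside 21.1% of all genes. Myh11 was higher at 17.6 CPM, against 2.67 CPM with ppluc (limma, 2.52, adjusted p = 2.33e-11). Endothelial markers summed to 56.4 to 97.8, 209 to 225, 142 to 154 and 130.04 to 152 CPM in the same order of groups, with Cdh5 at 0 throughout. Neuron and glia markers summed to 9.15 to 9.54 CPM with shRNA 2 and to between 1.82 and 4.33 CPM in the other groups, with Rbfox3 and Elavl4 at 0, and the 4 macrophage markers in the table stayed under 0.261 CPM. The part of these shifts in the results below was not tested.

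With shRNA 2, transcripts of 6 regulators, Rbm20, Rbm24, Rbfox2, Mbnl1, Celf1 and Celf2, were lower than with ppluc under both scalings, in a comparison where 21.1% of all genes tested were lower on library totals and 40.8% after TMM scaling (86.1% were called in either direction on library totals). Mbnl2 and Ptbp1 were higher on library totals and lower after TMM scaling. With shRNA 1, Mbnl1, Celf2 and Rbfox2 were lower and Celf1 was higher than with ppluc under both scalings, beside 18.7% of all genes lower and 54.7% higher on library totals and 33.7% each after TMM scaling. With ppluc, Rbm20, Rbm24, Rbfox2 and Celf1 were lower and Mbnl2, Celf2 and Ptbp1 were higher than in untransduced cells under both scalings, beside 32.2% of all genes lower and 24.9% higher on library totals and 29% and 28.3% after TMM scaling. On library totals the shRNAs differed least from each other in Mbnl1, Ptbp1 and Celf2 (log2 differences of 0.00, 0.05 and 0.14) and most in Rbm24, Rbm20 and Celf1.

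**Figure D1:**
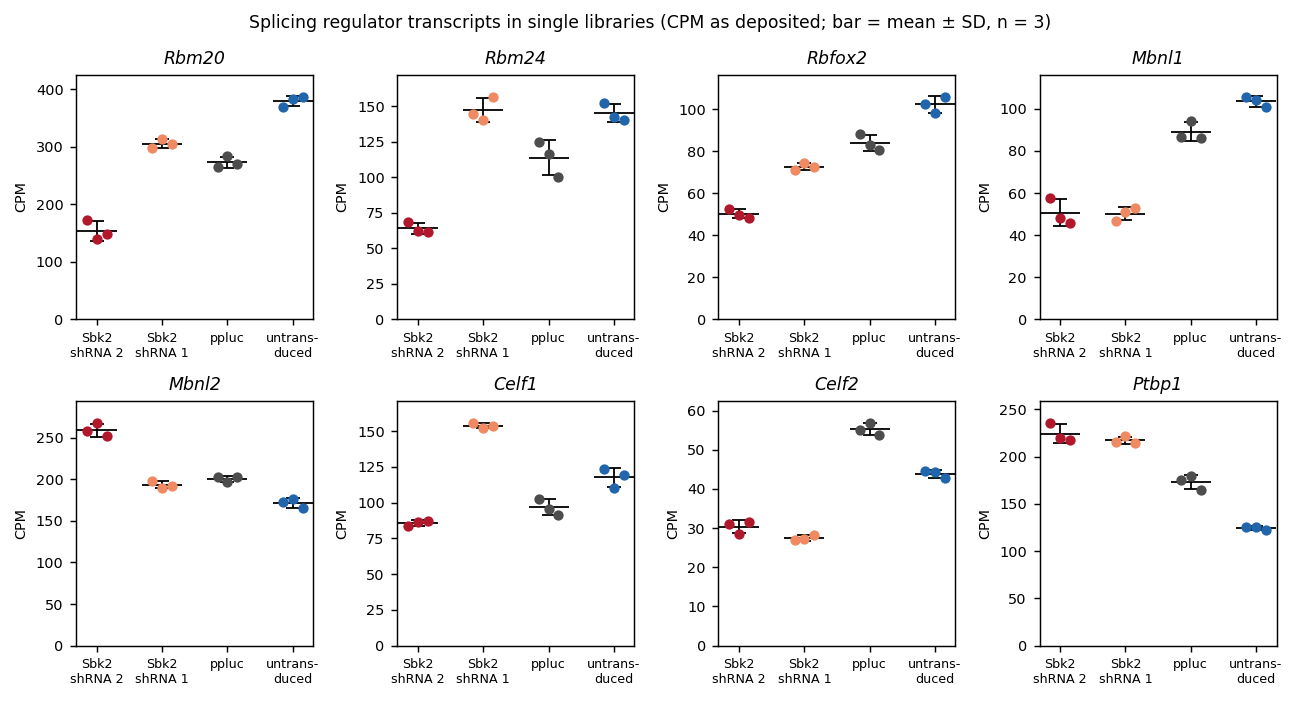
CPM of the 8 regulators with reads in every library, on linear axes from 0. Points are libraries A, B and C of cells with Sbk2 shRNA 2, Sbk2 shRNA 1, ppluc and no vector, and bars give the mean ± SD (n = 3). Rbm20 and Rbm24 were lowest with shRNA 2, Mbnl1 was low with both shRNAs, and Celf1 was highest with shRNA 1.

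Of the 8 members tested with shRNA 2 against ppluc, 2 were called higher and 6 lower on library totals (limma on log2(CPM + 0.5), Benjamini-Hochberg adjusted p under 0.05), where 86.1% of all 12493 genes were called, 65% higher and 21.1% lower. After TMM scaling 0 were higher and 8 lower, beside 40.2% of all genes higher and 40.8% lower. The libraries of the compared groups did not overlap for 8 members on library totals, as for 85.2% of all genes. The median member stood at -0.78 (log2) on library totals and -1.31 after TMM scaling, against 0.50 and -0.00 for all genes. A call by itself was thus the usual outcome of this comparison, and the size and direction of each change carry the description.

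For shRNA 1 against ppluc, 4 members were called higher and 3 lower on library totals, beside 54.7% and 18.7% of all genes (73.4% in either direction). After TMM scaling 1 was higher and 4 lower, beside 33.7% each of all genes. The median member stood at 0.06 on library totals and -0.22 after scaling, against 0.26 and 0.01 for all genes. Libraries did not overlap for 7 of 8 members, as for 76.6% of all genes. For both shRNAs taken as their mean against ppluc, 3 members were higher and 5 lower on library totals, beside 64.4% and 18.7% of all genes, and 0 were higher and 7 lower after TMM scaling, beside 37.7% and 39.2%. The libraries did not overlap for 4 of 8 members, as for 52.4% of all genes.

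For shRNA 2 against shRNA 1, 2 members were called higher and 4 lower on library totals, beside 53.2% and 27.7% of all genes (81% in either direction), and 1 was higher and 6 lower after TMM scaling, beside 38.8% and 38.9%. The libraries did not overlap for 6 members, as for 81.1% of all genes. For ppluc against untransduced cells, 3 members were called higher and 5 lower on library totals, beside 24.9% and 32.2% of all genes, and 3 were higher and 4 lower after scaling, beside 28.3% and 29%. The libraries did not overlap for all 8 tested members, as for 64.4% of all genes. Here the medians of all genes were -0.04 and -0.01, so the scaling mattered little, and the median member stood at -0.25 and -0.21. For both shRNAs (mean) against untransduced cells, 2 members were higher and 5 lower on library totals, beside 60.8% and 22% of all genes, and 1 was higher and 6 lower after scaling, beside 38.4% and 40.6%, and the libraries did not overlap for 6 members, as for 54.2% of all genes. The comparisons with ppluc share the ppluc libraries, and those between the shRNAs share theirs with them.

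**Figure D2:**
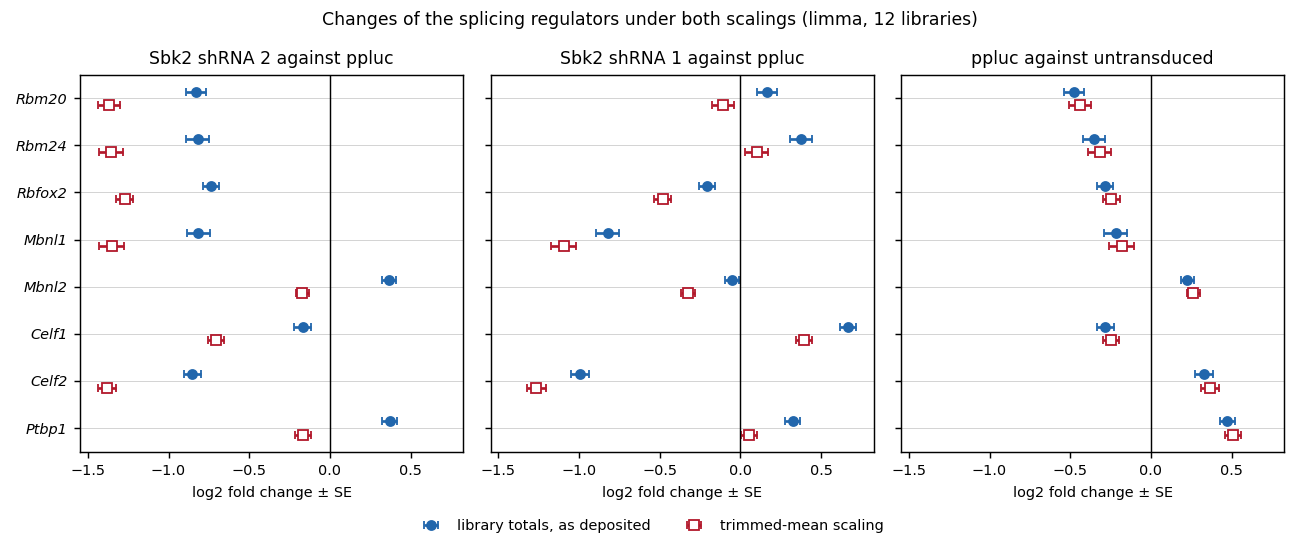
Log2 fold changes ± SE (limma, 12 libraries) of the 8 tested regulators for Sbk2 shRNA 2 against ppluc, Sbk2 shRNA 1 against ppluc and ppluc against untransduced cells. Filled circles are on library totals as deposited and open squares after trimmed-mean scaling, which moved the shRNA comparisons to the left: Mbnl2 and Ptbp1 with shRNA 2 stand at 0.37 on library totals and at -0.17 after scaling.

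Levels of different genes were compared in the deposited TPM values, in which reads are divided by transcript length before each library is brought to the same total. They are group means without single libraries, and the lengths used are not given. A gene's CPM divided by its TPM follows that length. For a few genes it was extremely low, such as the splicing factor Qk with 1.52 CPM but 368 TPM with shRNA 2, so that TPM levels of single genes can be inflated. Qk was looked at after its values were seen. For the 8 members the quotient ran from 0.766 (Celf2) to 5.44 (Rbm20), between the 17.1 and 96.0 percent points of all genes with both values, and the order of TPM levels below rests on these lengths. In TPM, Ptbp1 led with shRNA 2 at 104.99 and with shRNA 1 at 109, while Mbnl1 led with ppluc at 89.1 and in untransduced cells at 111. With shRNA 2 the order of TPM levels below Ptbp1 was Mbnl2 (79.2), Mbnl1 (49.0), Celf1 (44.7), Celf2 (39.7), Rbm24 (34.1), Rbfox2 (32.1) and Rbm20 (28.3). With shRNA 1 it was Rbm24 (84.7), Celf1 (81.0), Mbnl2 (63.3), Rbm20 (62.1), Mbnl1 (55.3), Rbfox2 (47.95) and Celf2 (35.7). Rbm20 was thus the lowest of the 8 in TPM with shRNA 2, and Celf2 with shRNA 1.

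With ppluc the TPM levels below Mbnl1 were 81.6 for Ptbp1, 69.2 for Celf2, 60.6 for Mbnl2, 59.9 for Rbm24, 53.7 for Rbfox2, 51.8 for Rbm20 and 46.4 for Celf1. In untransduced cells they were 79.6 for Rbm24, 77.8 for Rbm20, 70.8 for Rbfox2, 60.2 for Ptbp1, 59.7 for Celf1, 55.8 for Celf2 and 54.0 for Mbnl2. Neighbours were taken as not separated where their gap in TPM was smaller than the sum of their coefficients of variation in CPM. By that measure Mbnl1 and Celf1, Rbm24 and Rbfox2, and Rbfox2 and Rbm20 were not separated with shRNA 2, nor Rbm24 and Celf1, or Mbnl2 and Rbm20, with shRNA 1. With ppluc, Mbnl1 and Ptbp1 were not separated, nor were the neighbours between Mbnl2 and Rbm20. In untransduced cells Rbm24 and Rbm20, and the neighbours between Ptbp1 and Mbnl2, were not separated.

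The summed TPM of the 9 members was 412 with shRNA 2, 540 with shRNA 1, 512 with ppluc and 569 in untransduced cells. A common scaling of a group changes that sum but not the shares within it. Of the sum, Ptbp1 took 25.5% with shRNA 2, 20.3% with shRNA 1, 15.9% with ppluc and 10.6% in untransduced cells. Rbm20 took 6.86% with shRNA 2, 11.5% with shRNA 1, 10.1% with ppluc and 13.7% in untransduced cells. Mbnl1 took 11.9% with shRNA 2, 10.3% with shRNA 1, 17.4% with ppluc and 19.5% in untransduced cells.

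Rbm20 is a nuclear protein of striated muscle that represses exons of titin and of calcium-handling genes, and its mutations cause dilated cardiomyopathy in people. Its locus is chr1:274391932-274589816 in Rnor_6.0. Rbm20 had 173, 139 and 149 CPM in libraries A, B and C with shRNA 2, against 265, 284 and 269 CPM with ppluc. It had 298, 314 and 304 CPM with shRNA 1 and 369, 382 and 387 CPM in untransduced cells. The 4 groups did not overlap, with shRNA 2 lowest and untransduced cells highest. With shRNA 2 it was 1.78-fold lower than with ppluc, a log2 change of -0.83 ± 0.06 (SE, adjusted p = 4.06e-10) on library totals and of -1.37 ± 0.07 (adjusted p = 4.68e-12) after TMM scaling, both by limma. With shRNA 1 the change was 0.16 ± 0.06 (limma, adjusted p = 0.0232) on library totals and -0.11 ± 0.07 (adjusted p = 0.17) after TMM scaling, so its sign depended on the scaling. Without library B of shRNA 1 the first of these was 0.14 (adjusted p = 0.0781), and without library A or C of ppluc it was 0.14 (0.0808) or 0.16 (0.0595), so that the call was lost. Rbm20 was lower with shRNA 2 than with shRNA 1 by 0.99 on library totals (limma, adjusted p = 4.82e-11), and lower with ppluc than in untransduced cells, at -0.48 ± 0.06 (adjusted p = 3.39e-06).

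Rbm24 is a muscle RNA-binding protein needed for sarcomere assembly in vertebrate hearts, where it promotes muscle-specific exons and also binds mRNAs to steady them. Its locus is chr17:18671044-18682876 in Rnor_6.0. Rbm20 with Rbm24, and then Rbm20 with Rbfox2, had the closest profiles among the members. Of these 3, only Rbm24 had such a stretch in the RefSeq table (build GRCr8), and the 250 bases before its start are shown. They lie on the minus strand at chr17:18493629-18493878, with the capitals marking the single E-box (CANNTG):
Rbm24: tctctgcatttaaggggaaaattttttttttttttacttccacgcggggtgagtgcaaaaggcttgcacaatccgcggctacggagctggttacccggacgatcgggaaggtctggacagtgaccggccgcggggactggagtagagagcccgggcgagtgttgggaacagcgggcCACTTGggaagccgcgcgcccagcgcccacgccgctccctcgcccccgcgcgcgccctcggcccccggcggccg
Of 33469 rat promoters of this length, 65.5% hold an E-box on either strand, so such a match is common. The window held no match, on either strand, to the GC box (GGGCGG), the CCAAT box, the TATA box (TATAAA), the MCAT element (CATTCC) of muscle genes or the GATA site (AGATAA).

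Rbm24 had 68.8, 62.3 and 61.4 CPM with shRNA 2, against 125, 117 and 100.3 CPM with ppluc. It had 145, 140.2 and 157 CPM with shRNA 1 and 153, 142 and 141 CPM in untransduced cells. The shRNA 2 libraries lay below all others and those of shRNA 1 overlapped with the untransduced ones. With shRNA 2 the log2 change against ppluc was -0.82 ± 0.07 (limma, adjusted p = 2.74e-09), and -1.36 after TMM scaling. With shRNA 1 it was 0.37 ± 0.07 (limma, adjusted p = 9.92e-05) on library totals and 0.10 ± 0.07 after TMM scaling, which did not pass (adjusted p = 0.229). Between the shRNAs Rbm24 differed by -1.19 ± 0.07 for shRNA 2 against shRNA 1 (limma, adjusted p = 1.98e-11), the widest gap of the 8 members. With ppluc against untransduced cells it was lower, at -0.35 on library totals and -0.32 after scaling.

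Rbfox1 had 0 reads in all 3 libraries with shRNA 2, all 3 with shRNA 1 and all 3 untransduced ones, and 1 read in ppluc library B. A count of 0 allows up to 3 reads, or 0.0631 to 0.0991 CPM in these libraries, counting error only. Rbfox1 is the family member found in adult heart, skeletal muscle and brain, and it was not detectable at this depth in the iAM-1 libraries and not tested. Rbfox3, the neuronal form, had 0 reads in all 12 libraries.

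Rbfox2, the broadly expressed family member that acts in embryonic and adult heart, lies at chr7:118156946-118396728. It had 52.6, 49.8 and 48.3 CPM with shRNA 2, against 88.3, 83.0 and 80.8 CPM with ppluc. It had 71.0, 74.4 and 72.4 CPM with shRNA 1 and 103, 98.3 and 106 CPM in untransduced cells. The 4 groups formed 4 separate steps, lowest with shRNA 2 and highest in untransduced cells. Rbfox2 was lower with shRNA 2 than with ppluc at -0.74 ± 0.05 (limma, adjusted p = 1.21e-10) and lower with shRNA 1 at -0.21 ± 0.05 (adjusted p = 0.00113), and after TMM scaling these were -1.27 and -0.48. Rbfox2 was also lower with ppluc than in untransduced cells, at -0.28 ± 0.05 (limma, adjusted p = 0.00011). It was also lower with shRNA 2 than with shRNA 1 (-0.53, limma, adjusted p = 1.9e-08), and no other of the 8 members was called lower in all 4 of these comparisons under both scalings.

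Mbnl1 promotes adult exon choices in heart and muscle and is the protein trapped by expanded CUG repeats in myotonic dystrophy. Its locus is chr2:150756185-150869690 in Rnor_6.0. Its promoter is shown beside that of Ptbp1 below because these were the members whose profiles differed most. The 250 bases before the Mbnl1 start in RefSeq (GRCr8, plus strand, chr2:146819784-146820033) have a GC content of 78%, against a median of 51.2% over rat promoters, and capitals mark a pair of GC boxes (GGGCGG) that share bases:
Mbnl1: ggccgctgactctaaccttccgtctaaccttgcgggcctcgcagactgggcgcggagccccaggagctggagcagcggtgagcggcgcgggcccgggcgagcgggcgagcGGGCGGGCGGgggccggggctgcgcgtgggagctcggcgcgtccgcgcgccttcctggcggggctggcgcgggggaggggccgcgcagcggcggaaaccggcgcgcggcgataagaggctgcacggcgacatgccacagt
A GC box on either strand occurs in 30.5% of rat promoters of this length.

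Mbnl1 had 57.8, 48.1 and 45.7 CPM with shRNA 2, against 86.6, 94.3 and 86.3 CPM with ppluc. It had 46.9, 50.9 and 52.8 CPM with shRNA 1 and 106, 104 and 101 CPM in untransduced cells. The libraries of the shRNAs overlapped with each other and lay below every control library. The log2 change against ppluc was -0.82 ± 0.07 with shRNA 2 (limma, adjusted p = 4.18e-09) and -0.82 ± 0.07 with shRNA 1 (adjusted p = 9.95e-09). After TMM scaling these were -1.35 and -1.09, and both passed. The difference between the shRNAs was 0.00 ± 0.07 on library totals (limma, adjusted p = 0.96) but -0.26 ± 0.08 after TMM scaling (adjusted p = 0.00591), so whether the shRNAs lowered Mbnl1 alike depended on the scaling. With ppluc against untransduced cells Mbnl1 stood at -0.22 ± 0.07 (limma, adjusted p = 0.0145). This call was lost after TMM scaling (-0.18, adjusted p = 0.0544), without ppluc library A (-0.20, adjusted p = 0.0528) and without ppluc library C (-0.20, adjusted p = 0.0529).

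Mbnl2 binds the same kind of sites as Mbnl1 and partly stands in for it. Its locus is chr15:105640097-105797932. Mbnl2 had 257, 267 and 252 CPM with shRNA 2, against 202, 196 and 202 CPM with ppluc. It had 198, 189.9 and 192 CPM with shRNA 1 and 172, 176 and 165 CPM in untransduced cells. The shRNA 2 libraries lay above all others on this scale, and those of shRNA 1 overlapped with ppluc. On library totals Mbnl2 was higher with shRNA 2 than with ppluc at 0.37 ± 0.04 (limma, adjusted p = 2.01e-07), but after TMM scaling it was lower, at -0.17 ± 0.04 (adjusted p = 0.00103). With shRNA 1 it stood at -0.05 ± 0.04 on library totals (limma, adjusted p = 0.278) and at -0.33 ± 0.04 after TMM scaling (adjusted p = 1.96e-06). Mbnl2 was higher with shRNA 2 than with shRNA 1 (0.42, and 0.16 after scaling) and higher with ppluc than in untransduced cells (0.23, and 0.26 after scaling), all past the limma threshold.

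Celf1 binds GU-rich RNA, opposes Mbnl proteins at many exons and normally declines in heart after birth. Its locus is chr3:79823945-79842082. Celf1 had 156, 152 and 154 CPM with shRNA 1, against 103, 95.7 and 91.6 CPM with ppluc. It had 83.6, 86.5 and 87.2 CPM with shRNA 2 and 123, 110.4 and 119 CPM in untransduced cells. The 4 groups did not overlap, and the shRNA groups lay on opposite sides of both controls. With shRNA 1 Celf1 was 1.59-fold higher than with ppluc, at 0.67 ± 0.05 (limma, adjusted p = 1.6e-09), and 0.40 after TMM scaling. With shRNA 2 it was lower, at -0.17 ± 0.05 (limma, adjusted p = 0.00444), and at -0.71 after TMM scaling. In the deposited TPM means the log2 ratio of shRNA 2 to ppluc was only -0.06 for Celf1. The gap between the shRNAs was -0.84 ± 0.05 for shRNA 2 against shRNA 1 (limma, adjusted p = 3.24e-11), and -1.10 after scaling. Celf1 was lower with ppluc than in untransduced cells at -0.28 ± 0.05 (limma, adjusted p = 0.000117). For the mean of both shRNAs against ppluc its sign turned with the scaling, at 0.25 on library totals and -0.16 after TMM scaling.

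Celf2, a relative of Celf1 with similar RNA targets, lies at chr17:75352389-75654951. Celf2 had 31.0, 28.6 and 31.6 CPM with shRNA 2, against 55.0, 56.8 and 53.8 CPM with ppluc. It had 27.1, 27.1 and 28.3 CPM with shRNA 1 and 44.5, 44.3 and 42.7 CPM in untransduced cells. Every shRNA library lay below every control library, and ppluc was the highest group. The log2 change against ppluc was -0.85 ± 0.05 with shRNA 2 (limma, adjusted p = 5.26e-11) and -0.99 ± 0.05 with shRNA 1 (adjusted p = 2.55e-11), and -1.38 and -1.26 after TMM scaling. Celf2 was higher with ppluc than in untransduced cells at 0.33 ± 0.05 (limma, adjusted p = 5.4e-05), so the shRNA groups lay farther below ppluc than below untransduced cells. Against untransduced cells, which share no vector, the mean of both shRNAs was lower by a log2 change of -0.59 ± 0.05 (limma, adjusted p = 1.49e-09), and of -0.96 after scaling. The small difference between the shRNAs, 0.14 ± 0.05 for shRNA 2 against shRNA 1 (limma, adjusted p = 0.0246), became -0.12 (adjusted p = 0.0655) after TMM scaling. It also lost its call without library A or C of shRNA 2 (0.13, adjusted p = 0.0551, and 0.11, adjusted p = 0.0936) and without library A or B of shRNA 1 (0.13, adjusted p = 0.0667, and 0.13, adjusted p = 0.0637).

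Ptbp1, the polypyrimidine tract binding protein, represses muscle and neuronal exons in proliferating and embryonic cells and normally declines as muscle matures. Its locus is chr7:12663966-12673723 in Rnor_6.0. The 250 bases before its start in RefSeq (GRCr8, minus strand, chr7:10502958-10503207) hold 3 CCAAT boxes, marked in capitals:
Ptbp1: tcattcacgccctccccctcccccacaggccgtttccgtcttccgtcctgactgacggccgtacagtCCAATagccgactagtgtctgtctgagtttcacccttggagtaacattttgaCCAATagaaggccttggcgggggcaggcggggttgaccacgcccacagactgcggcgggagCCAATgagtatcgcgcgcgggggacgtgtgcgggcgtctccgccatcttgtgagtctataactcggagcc
At least 1 CCAAT on either strand occurs in 34.0% of rat promoters of this length.

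Ptbp1 had 235, 220.1 and 217 CPM with shRNA 2, against 175, 179.8 and 165 CPM with ppluc. It had 215, 222 and 215 CPM with shRNA 1 and 126, 126 and 122 CPM in untransduced cells. The shRNA groups overlapped with each other on this scale and lay above ppluc, which lay above untransduced cells. On library totals Ptbp1 was higher than with ppluc at 0.37 ± 0.05 with shRNA 2 (limma, adjusted p = 4.41e-07) and 0.32 ± 0.05 with shRNA 1 (adjusted p = 4.22e-06). After TMM scaling these were -0.17 ± 0.05 (limma, adjusted p = 0.00468) and 0.05 ± 0.05 (adjusted p = 0.381), so neither rise held. With ppluc against untransduced cells Ptbp1 was 1.39-fold higher, at 0.47 ± 0.05 (limma, adjusted p = 9.53e-08), and at 0.51 after scaling. Against untransduced cells the mean of both shRNAs was higher under both scalings, at 0.82 ± 0.04 (limma, adjusted p = 1.07e-12) and 0.45 ± 0.04 (adjusted p = 2.73e-08).

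Ratios of reads between members of the same library are free of the scaling, and are given as descriptions because the pairs were chosen after their values were seen. Mbnl2 reads outnumbered Mbnl1 reads 4.45 to 5.56 times with shRNA 2 and 3.64 to 4.22 times with shRNA 1, against 2.08 to 2.35 times with ppluc and 1.63 to 1.69 times in untransduced cells. The 4 groups did not overlap, and the ratio was highest with shRNA 2. The ratio of Ptbp1 to Mbnl1 reads was 4.07 to 4.75 with shRNA 2 and 4.06 to 4.59 with shRNA 1, against 1.91 to 2.03 with ppluc and 1.19 to 1.21 in untransduced cells. Here the shRNA groups overlapped with each other and stood clear of both controls.

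The ratio of Celf1 to Celf2 reads was 2.70 to 3.02 with shRNA 2 and 5.44 to 5.74 with shRNA 1, against 1.68 to 1.86 with ppluc and 2.49 to 2.79 in untransduced cells. It was higher with either shRNA than with ppluc, while with shRNA 2 it overlapped with untransduced cells. The ratio of Ptbp1 to Rbm20 reads was 1.36 to 1.58 with shRNA 2, 0.706 to 0.721 with shRNA 1, 0.613 to 0.663 with ppluc and 0.316 to 0.342 in untransduced cells. Ptbp1 reads outnumbered Rbm20 reads in the shRNA 2 libraries alone. The ratio of Rbm24 to Rbm20 reads ran from 0.397 to 0.447 with shRNA 2, 0.447 to 0.516 with shRNA 1, 0.372 to 0.472 with ppluc and 0.364 to 0.413 in untransduced cells, with overlap between most groups.

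**Figure D3:**
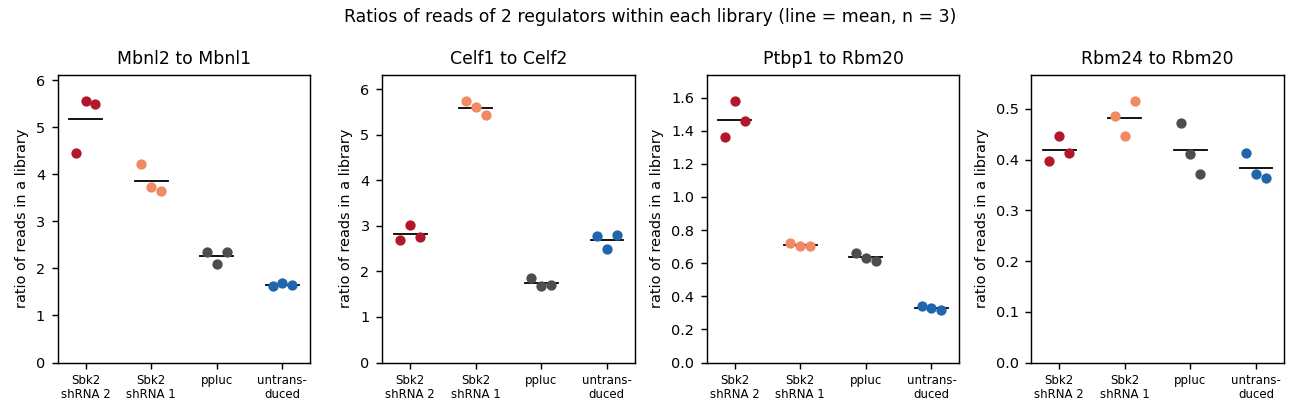
Ratio of the reads of 2 regulators within each library, on linear axes from 0, for Mbnl2 to Mbnl1, Celf1 to Celf2, Ptbp1 to Rbm20 and Rbm24 to Rbm20. Points are libraries, grouped as Sbk2 shRNA 2, Sbk2 shRNA 1, ppluc and untransduced, and lines are means (n = 3). Mbnl2 to Mbnl1 stepped up to 5.17 on average with shRNA 2, Celf1 to Celf2 peaked at 5.59 with shRNA 1, and Rbm24 to Rbm20 stayed between 0.364 and 0.516.

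Profiles were compared by the root mean square distance between centred log2(CPM + 0.5) values over the 12 libraries. Among members, Rbm20 and Rbm24 were the closest pair (0.15), followed by Rbm20 and Rbfox2 (0.19), Mbnl2 and Ptbp1 (0.23), and Mbnl1 and Celf2 (0.23), and Mbnl1 and Ptbp1 were farthest apart (0.80). Neither pair of paralogues, Mbnl1 and Mbnl2 or Celf1 and Celf2, was among the 4 closest pairs. Among 9335 genes with a symbol and a mean of at least 5 CPM, those closest to Rbm20 were Il4r (0.06), Wdr45 (0.07) and Szrd1 (0.08), and those closest to Rbm24 were Gaa (0.10), Slc39a9 (0.10) and Arid1b (0.11). Il4r, for instance, averaged 63.9 CPM with shRNA 2, 133 CPM with shRNA 1, 123 CPM with ppluc and 159 CPM in untransduced cells. Rbfox2 was nearest to Trak2, Klhl41 and Bri3, Mbnl1 to Itpr1, Fhl1 and Cdc42ep3, and Mbnl2 to Nrf1, Tiparp and Calm2. Celf1 was nearest to Tmed2, Tob2 and Zfp763, Celf2 to Micall1, Mxd4 and Tbxa2r, and Ptbp1 to Fbxo42, Myef2 and Eif4a1.

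Of 9 further genes from these families, 4 had enough reads to test, and the others, Rbfox3, Mbnl3, Celf3, Celf4 and Celf6, had 0 to 5 reads per group. Rbm38, the closest relative of Rbm24 and a factor that also acts on mRNA stability, had 53.5 to 71.1 CPM with shRNA 2 and 120 to 133 CPM with shRNA 1, against 181 to 198 CPM with ppluc and 310.4 to 329 CPM in untransduced cells. The 4 groups did not overlap. Its log2 change against ppluc was -1.58 with shRNA 2 (limma, adjusted p = 7.68e-13) and -0.58 with shRNA 1 (adjusted p = 1.56e-06), and -2.12 and -0.85 after TMM scaling, so Rbm38 was lower with shRNA 1 where Rbm24 was not.

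Ptbp2, the neuronal relative whose mRNA Ptbp1 is known to destabilise by skipping an exon, averaged 48.4 CPM with shRNA 2 and 57.0 CPM with shRNA 1, against 35.2 CPM with ppluc and 36.6 CPM in untransduced cells. It was higher than with ppluc at 0.45 with shRNA 2 and 0.69 with shRNA 1 on library totals, both past the limma threshold, and at -0.08 (adjusted p = 0.196) and 0.42 (adjusted p = 4.24e-06) after TMM scaling. Ptbp3 averaged 53.0 CPM with shRNA 2 and 70.9 CPM with shRNA 1, against 35.4 CPM with ppluc and 37.1 CPM in untransduced cells. Its changes against ppluc were 0.58 and 0.99 on library totals, and 0.04 (limma, adjusted p = 0.492) and 0.72 (adjusted p = 3.9e-09) after TMM scaling. Both relatives were thus higher with shRNA 1 under both scalings, and neither passed the threshold with ppluc against untransduced cells (adjusted p = 0.466 for Ptbp2 and 0.331 for Ptbp3 by limma), where Ptbp1 did. Celf5 stood at 1.99 CPM with shRNA 2, 3.65 CPM with shRNA 1, 3.17 CPM with ppluc and 3.00 CPM in untransduced cells.

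The wider splicing machinery is given for both shRNAs (mean) against ppluc, beside 64.4% of all genes higher and 18.7% lower on library totals and 37.7% and 39.2% after TMM scaling. Counts taken separately after scaling, in this and all lists below, stand beside other shares of all genes. These were 40.2% higher and 40.8% lower with shRNA 2, and 33.7% each with shRNA 1. Of 39 core spliceosome genes, 38 were higher and 0 lower on library totals, and 23 were higher and 6 lower after scaling, with medians of 0.55 and 0.15. Sf3b4, a subunit of the complex that recognises the branch point, averaged 97.0 CPM with shRNA 2 and 87.8 CPM with shRNA 1, against 48.03 CPM with ppluc and 48.6 CPM in untransduced cells, a change of 0.94 on library totals and 0.53 after scaling (limma, adjusted p = 1.85e-09). Sf3b3 of the same complex was higher by 0.85 and 0.45. Taken separately after TMM scaling, 19 core spliceosome genes were higher and 7 lower with shRNA 2, and 22 higher and 4 lower with shRNA 1.

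SR proteins bind exonic enhancers and recruit the spliceosome. Of 14 tested, 13 were higher and 0 lower on library totals, but 4 were higher and 7 lower after TMM scaling, with medians of 0.33 and -0.08. Srsf9 averaged 59.4 CPM with shRNA 2 and 45.8 CPM with shRNA 1, against 19.0 CPM with ppluc and 12.7 CPM in untransduced cells, and was higher by 1.43 on library totals and 1.03 after scaling (limma, adjusted p = 3.53e-11). Srsf3 was also higher after TMM scaling, at 0.23 with shRNA 2 (limma, adjusted p = 4.9e-05) and 0.12 with shRNA 1 (adjusted p = 0.0173). Srsf5 and Tra2b passed after scaling with shRNA 2 (0.51 and 0.42) but stood at 0.03 each with shRNA 1 (limma, adjusted p = 0.701 and 0.659). Taken separately after scaling, 4 SR proteins were higher and 6 lower with shRNA 2, and 2 higher and 3 lower with shRNA 1. Srsf5 was lower with ppluc than in untransduced cells, at 75.8 CPM against 156 CPM (limma, -1.04, adjusted p = 4.21e-10). It averaged 156 CPM with shRNA 2 and 93.3 CPM with shRNA 1. Against untransduced cells after scaling, the mean of both shRNAs stood at -0.74 for Srsf5 (limma, adjusted p = 1.17e-09). For Srsf3 and Tra2b it stood at -0.06 and -0.08, which did not pass (adjusted p = 0.0997 and 0.128).

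Of 7 kinases that phosphorylate SR proteins, 4 were higher and 0 lower on library totals, and 2 were higher and 4 lower after TMM scaling (2 and 4 with shRNA 2, 1 and 2 with shRNA 1). Srpk1 averaged 127 CPM with shRNA 2 and 59.0 CPM with shRNA 1, against 50.3 CPM with ppluc and 36.0 CPM in untransduced cells. After scaling Srpk1 was higher than with ppluc with shRNA 2 (0.78, limma, adjusted p = 1.35e-10), but stood at -0.05 with shRNA 1 (adjusted p = 0.449). The muscle kinase Srpk3 averaged 19.2 CPM with shRNA 2 and 53.1 CPM with shRNA 1, against 35.2 CPM with ppluc and 24.9 CPM in untransduced cells. Against ppluc, Srpk3 was lower with shRNA 2 (-0.86, and -1.39 after scaling) and higher with shRNA 1 (0.59, and 0.32 after scaling), all past the limma threshold.

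Of 20 tested hnRNPs, proteins that often oppose SR proteins, 12 were higher and 2 lower on library totals, and 1 was higher and 11 lower after TMM scaling. Taken separately after scaling, 2 were higher and 11 lower with shRNA 2, but 7 higher and 7 lower with shRNA 1. Hnrnpd was higher with either shRNA than with ppluc under both scalings, at 149 CPM with shRNA 2, 129 CPM with shRNA 1 and 86.7 CPM with ppluc. Untransduced cells had 116 CPM, and after scaling the mean of both shRNAs stood at -0.11 against them (limma, adjusted p = 0.0259). Syncrip was not called against ppluc on library totals (-0.10 for the mean of both shRNAs, limma, adjusted p = 0.12). It was lower after scaling (-0.50, adjusted p = 2.02e-07). Of 20 other tissue-type splicing factors, 14 were higher and 2 lower on library totals, and 4 were higher and 10 lower after scaling (4 and 12 with shRNA 2, 3 and 7 with shRNA 1). Among them Khdrbs3 averaged 12.3 CPM with shRNA 2 and 44.5 CPM with shRNA 1, against 43.1 CPM with ppluc and 45.4 CPM in untransduced cells. The log2 change of Khdrbs3 against ppluc was -1.77 with shRNA 2 on library totals and -2.29 after scaling (limma, adjusted p = 5.15e-15), and with shRNA 1 it was 0.05 (adjusted p = 0.528) and -0.22 (adjusted p = 0.00896). Rbpms2 averaged 6.17 CPM with shRNA 2 and 2.64 CPM with shRNA 1, against 1.25 CPM with ppluc and 4.45 CPM in untransduced cells.

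Genes known to carry exons under the control of these regulators were described by their gene totals only. Of 15 genes with Rbm20-dependent exons, 2 were higher and 10 lower on library totals, and 1 was higher and 14 lower after TMM scaling, with medians of -0.44 and -0.84. Taken separately after scaling, 0 were higher and 12 lower with shRNA 2, and 2 higher and 12 lower with shRNA 1. The shares of all genes after scaling were 40.2% higher and 40.8% lower with shRNA 2, and 33.7% each with shRNA 1. Most of them are themselves heart muscle genes. For both shRNAs (mean) against ppluc, 9 of 9 cardiomyocyte markers were lower, with medians of -1.88 and -2.28. Of all genes, 18.7% were lower on library totals and 39.2% after scaling, and the markers are heart muscle genes too. The part of a general loss of heart muscle transcripts in these counts was not tested. Titin is 1 of the 16 genes listed, of which 15 were in the deposited table, and values of titin itself are not given here. Ldb3, a Z-disc protein, averaged 252 CPM with shRNA 2 and 675 CPM with shRNA 1, against 1043 CPM with ppluc and 1435 CPM in untransduced cells. Pdlim3, another Z-disc protein, was higher on library totals, with 757 CPM with shRNA 2 and 1031 CPM with shRNA 1, against 559 CPM with ppluc and 283 CPM in untransduced cells. After scaling Pdlim3 was higher than with ppluc with shRNA 1 (0.61, limma, adjusted p = 1.13e-07), but stood at -0.10 with shRNA 2 (adjusted p = 0.127).

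Of 19 tested genes with exons that depend on Mbnl, Celf, Rbfox or Ptbp1, 7 were higher and 9 lower on library totals, and 4 were higher and 13 lower after TMM scaling (4 and 13 with shRNA 2, 4 and 9 with shRNA 1), with medians of -0.11 and -0.52. Mef2a, a muscle transcription factor with alternative exons, averaged 132 CPM with shRNA 2 and 301 CPM with shRNA 1, against 431 CPM with ppluc and 509.9 CPM in untransduced cells. The insulin receptor gene Insr, whose exon choice is altered in myotonic dystrophy, averaged 144 CPM with shRNA 2 and 119.9 CPM with shRNA 1, against 76.8 CPM with ppluc and 56.8 CPM in untransduced cells, and was higher than with ppluc under both scalings (0.78 and 0.37 for the mean of both shRNAs). Bin1, which shapes transverse tubules, was likewise higher under both scalings, at 0.89 and 0.49.

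**Figure D4:**
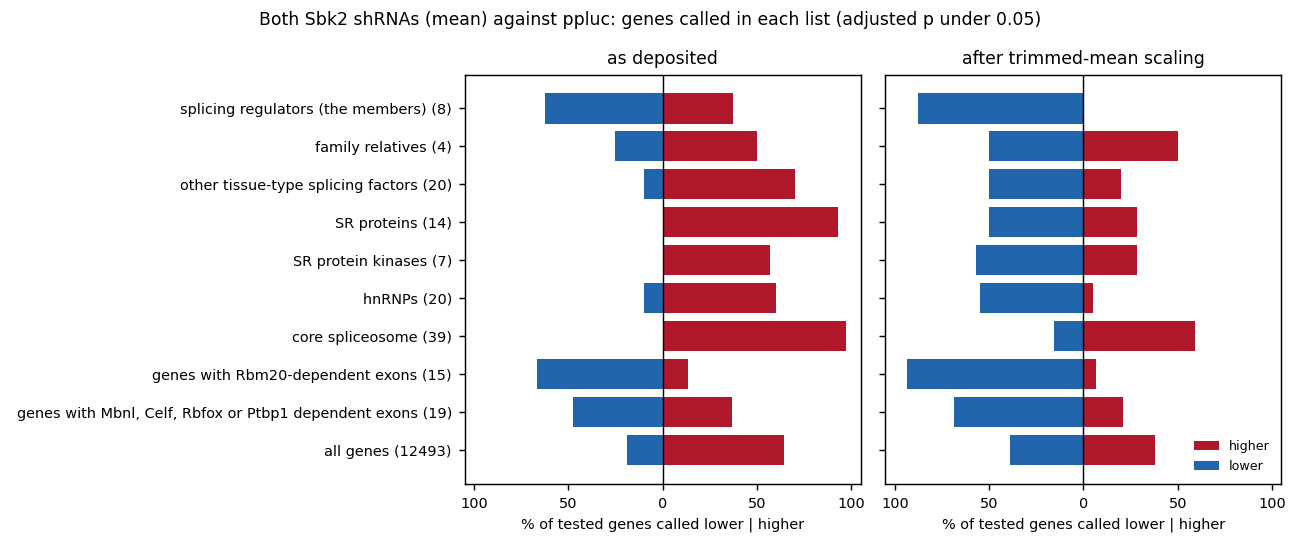
Percent of the tested genes of each list called higher (right of 0) or lower (left of 0) for both Sbk2 shRNAs (mean) against ppluc, on library totals as deposited and after trimmed-mean scaling. List sizes are in brackets and all genes are the bottom row. The 8 tested regulators had 5 members lower on library totals and 7 after scaling, while the core spliceosome had 38 and 23 of 39 genes higher.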

How the data were processed

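Stranded polyA libraries were sequenced as 150-bp pairs, per the labels' protocols. The authors deposited group means of CPM (32761 features) and of TPM, and a table of loci in Rnor_6.0, to whose starts 1 was added here. The sources used here name no aligner or counting tool, and DESeq2 is named without its use, per the submitters' processing notes.

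A deposited CPM mean is the sum of 3 library CPM values over 3 at double precision. Whole reads of the 3 libraries were found by lattice reduction as the triples that return the stored mean. Where several triples fitted, those with a spread between libraries above a limit were dropped if others remained. The limit, 0.1559 to 0.3804 of the mean by group, came from abundant features with a single triple. Exactly 1 triple was then left for 32725 to 32753 features per group, and 3 to 34 had several. All low values tried (297 to 431 per group) were returned exactly, but the summing order was chosen on these same values. Of 1000 shifted control values per group, 1 to 6 had a triple. The controls were drawn from values above 1 CPM, so these rates do not compare like with like. The CPM of the recovered libraries rest on totals of 30274847 to 47517427 reads, which were inferred from the most frequent low values. The recovered reads did not add up exactly to these totals. Library C of untransduced cells summed to 35941467 against 35082868, and library A of ppluc to 38318207 against 38321704. Some recovered triples may therefore be wrong, and this was not traced. Library pairs of a group correlated at 0.9945 to 0.9973. Reads are not independent molecules, so read floors cover counting error only.

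The 12493 genes that reached 0.5 CPM in 3 or more libraries were fitted as log2(CPM + 0.5) with limma 3.58.1 (R 4.3.3, lmFit, eBayes with a trend, 1 mean per group, all 12 libraries) and Benjamini-Hochberg adjustment over all of them. A fold change on this scale understates the change of low genes. The script was tested on simulated data. Trimmed-mean and median-of-ratios factors were computed in R. Levels between genes use the deposited TPM only. Promoters are RefSeq sequences of GRCr8, matched by symbol for 6 of 9 members, and motifs were searched on both strands of the 250 bases upstream. Tables and figures were made with Python 3.11.15, using pandas 2.3.3 and numpy 2.4.6 for the tables and matplotlib 3.10.9 for the figures.

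The members, gene lists and tests were chosen with earlier results of these data known. Besides members and Sbk2, named genes are up to 4 per list with the smallest p for both shRNAs (mean) against ppluc, up to 2 for ppluc against untransduced, and the 3 nearest profiles per member. Family relatives without tests were named to account for them. Alternatives were other scalings, pseudocounts and filters, limma-voom on the recovered reads, only the groups compared, each library left out, and TPM means.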

Additional observations from a re-analysis of the deposited data

Results flagged for a closer look

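For 6 of the 8 tested regulators the change against ppluc differed between the shRNAs on library totals, by a limma test of the difference itself over 12 libraries. The effect of shRNA 2 minus that of shRNA 1 was -1.19 (log2) for Rbm24 (-0.82 and 0.37), -0.99 for Rbm20 (-0.83 and 0.16), -0.84 for Celf1 (-0.17 and 0.67) and -0.53 for Rbfox2 (-0.74 and -0.21). It was 0.42 for Mbnl2 (0.37 and -0.05) and 0.14 for Celf2 (-0.85 and -0.99). As the comparisons share the ppluc libraries, the difference equals shRNA 2 against shRNA 1. In this comparison 81% of all genes were called, 53.2% higher and 27.7% lower. After trimmed-mean scaling the difference was -1.46 for Rbm24, -1.26 for Rbm20, -1.10 for Celf1, -0.79 for Rbfox2 and 0.16 for Mbnl2, all past the threshold. For Celf2 it was -0.12, which was not (limma, adjusted p = 0.0655). Mbnl1 and Ptbp1, not called on library totals, passed after scaling, at -0.26 (limma, adjusted p = 0.00591) and -0.22 (adjusted p = 0.000625). Of all genes, 38.8% were higher and 38.9% lower after scaling.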

How the results depend on the processing

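The scaling was the choice that mattered. With TMM and with median-of-ratios scaling alike, the members called higher numbered 0 (2 on library totals) for shRNA 2 against ppluc, 1 (4) for shRNA 1 against ppluc, 0 (3) for both shRNAs (mean) against ppluc, 1 (2) for shRNA 2 against shRNA 1 and 1 (2) for both shRNAs (mean) against untransduced cells. With only the groups compared, members higher numbered 1 for shRNA 2 against shRNA 1, and 1 to 2 with each library left out. Signs turned with both scalings, given as TMM and then median-of-ratios: for shRNA 2 against ppluc, Mbnl2 -0.17 and -0.15 and Ptbp1 -0.17 and -0.15, and for shRNA 1 against ppluc, Rbm20 -0.11 and -0.11. For both shRNAs (mean) against ppluc they were Mbnl2 -0.25 and -0.24, Celf1 -0.16 and -0.15, and Ptbp1 -0.059 and -0.048. For shRNA 2 against shRNA 1 they were Mbnl1 -0.26 and -0.24, Celf2 -0.12 and -0.10, and Ptbp1 -0.22 and -0.20. The scaling factors are the only thing these settings change. Other pseudocounts (0.1 and 2), a minimum of 5 CPM and limma-voom on the recovered reads changed no direction or call of a member in any of the 6 comparisons. Without a filter on low values Rbm20 with shRNA 1 against ppluc lost its call (adjusted p = 0.0588), and with only the groups compared Celf2 between the shRNAs did (adjusted p = 0.0783). With each library left out, 327 member changes kept direction and call, and 9 (Rbm20, Mbnl1 and Celf2) lost the call. In deposited TPM means, 14 of 24 log2 ratios of group means lay within the replicate spread of the CPM ones, and 10 moved beyond it. Against ppluc, Mbnl2 with shRNA 1 stood at 0.06 (-0.05 in CPM). Celf1 with shRNA 2 shrank to -0.06 in TPM and Mbnl1 with shRNA 1 to -0.69 (limma on CPM, -0.17 and -0.82). With shRNA 1, Celf1, Ptbp1 and Rbm20 grew to 0.80, 0.42 and 0.26 (limma on CPM, 0.67, 0.32 and 0.16). The cause was not tested. The planned edgeR and DESeq2 alternatives were not run: no deposited column holds counts, and limma-voom was the model used on the recovered reads. No paired analysis was possible because the deposited columns are group means that carry no replicate numbers. At 30274847 reads or more per library, Rbfox1 and 5 family relatives were too low to test.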
